A study of Mus musculus with 10 samples.

Results

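Tek, Tie1, Angpt2 and Ptprb, the angiopoietin and Tie receptor genes that endothelial cells themselves express, were followed in single-cell RNA-seq libraries of bone endothelium. The 4 genes were chosen by name from 22553 genes in 46283 cells. The cells came from femur and tibia of C57BL/6 mice that carried the Cdh5-mTnG reporter, in which the promoter of the endothelial cadherin gene Cdh5 drives a membrane-bound tdTomato and a nuclear GFP. All 5 groups carried the reporter, and in all of them lineage-depleted cells positive for both fluorophores were sorted. Each group gave 2 libraries: juvenile mice of both sexes at 3 weeks, adult females at 12 weeks, aged females at 75 weeks, and 12-week-old females given parathyroid hormone (PTH, a hormone whose intermittent use builds bone) or alendronate (a bisphosphonate that blocks osteoclasts). According to the methods of the study, animals were pooled for each group and the experiment was done once, so that all p-values, between groups and between classes, measure the spread between libraries and not between mice, and the 2 libraries of a group are not independent sets of animals.

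Tek encodes the receptor tyrosine kinase TIE2, which binds the angiopoietins, and Tie1 encodes its relative, which modulates TIE2 and was long regarded as an orphan receptor. Angiopoietin 1, made mainly by perivascular and other supporting cells, activates TIE2, holds FOXO1 out of the nucleus and keeps vessels quiescent, whereas angiopoietin 2, stored in endothelial granules, acts as a context-dependent partial agonist or antagonist. Ptprb encodes VE-PTP, the endothelial phosphatase that dephosphorylates TIE2 and associates with VE-cadherin at junctions. In bone, sinusoids of the marrow, arteries, metaphyseal capillaries and the type R capillaries near remodelling trabeculae are distinct endothelial populations.

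Cells were clustered without the members and named by a list of markers, several of which stem from the study's own clusters. Of 43818 endothelial cells, 19038 were bmEC-like (marrow sinusoidal, with Stab2), 12536 mpEC-like (metaphyseal, with Ramp3 and Aplnr), 6574 aEC-like (arterial, with Gja4), 2948 rEC-like (type R, with Timp4 and Aqp7) and 844 pEC-like (proliferating). The rEC-like cluster scored 4.74 for its own markers and next, at 0.33, for myofibre (muscle fibre) ones. A further 1878 endothelial cells formed a cluster led by Tagln, Ccl21a and Vwf that the markers did not name. Its best score was for lymphatic-like markers and its next for rEC-like ones, and its 10 leading genes included Fmo2 and C1qtnf9, the latter also among the 10 leading genes of the rEC-like cluster. Libraries held 10653583 to 28419323 UMIs (unique molecules), with a median of 3075 to 5149 UMIs per cell. The aged libraries listed 2017 genes that no other library listed, holding 1.54% and 1.55% of their UMIs, and shared 3 or 4 cell barcodes with any other library, against 10 to 88 between the rest. Those genes were left out, and age cannot be told apart from the way in which the aged libraries were made.

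Tek and Tie1 both lie on chromosome 4 (GRCm38, the build of the files), Tek at chr4:94739289-94874976 on the plus strand and Tie1 at chr4:118471191-118490061 on the minus strand. Angpt2 lies at chr8:18690263-18741562 on the minus strand within the span of Mcph1, and Ptprb at chr10:116275523-116389535 on the plus strand. No exon of another annotated gene overlaps an exon of a member. The 250 bases before the start of Tek, the receptor gene that was highest in the sinusoidal cells, are given in the direction of the gene (chr4:94739039-94739288, RefSeq, GRCm38.p6), and capitals mark the core GGAA of ETS family motifs or its reverse complement TTCC.
Tek: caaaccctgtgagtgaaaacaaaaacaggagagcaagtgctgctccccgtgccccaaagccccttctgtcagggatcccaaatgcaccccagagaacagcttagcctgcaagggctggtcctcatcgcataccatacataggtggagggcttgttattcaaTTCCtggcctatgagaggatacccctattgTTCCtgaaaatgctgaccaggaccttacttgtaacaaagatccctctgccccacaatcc
Tek has 2 such cores, and 76.8% of 32851 windows of the same kind have at least as many. The corresponding window of Tie1 has 7 cores, a number that 3.82% of windows reach. Of all windows 93.4% hold at least 1 core. Most of the window of Tie1, 212 of its 250 bases, lies in an annotated exon, so its letters are not shown.

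Tek was highest in the sinusoidal cells. Its level in bmEC-like cells was lowest at 326, had a median of 372 and was highest at 411 CPM (UMI counts brought to one library size, scaled by TMM over the class sums) over 10 libraries (372 ± 30, SD, n = 10). In mpEC-like cells the lowest, median and highest values were 261, 324 and 362, and in rEC-like cells 211, 313 and 362. For aEC-like cells they came to 212, 270 and 323 CPM. Among the 4 non-proliferating classes, bmEC-like cells had the highest value of Tek within each of the 10 libraries, although the ranges overlapped between libraries. Set against the average of all other classes, Tek was higher by a log2 fold change of 0.38 (SE 0.045, edgeR adjusted p = 2.47e-10), which lies below the log2 fold change of 1 set for a call. Of all genes, 15.4% were called in this comparison and 68.3% had an adjusted p under 0.05, as had all 4 members. At that looser limit 3 members differed in mpEC-like cells (39.9% of genes), 4 in aEC-like (54.2%), 3 in rEC-like (49.2%) and 3 in pEC-like cells (42.8%), so that a small but resolved difference was common among genes. The difference from mpEC-like cells was 0.24 (SE 0.056, edgeR adjusted p = 0.000245). Between mpEC-like and rEC-like cells the order was not resolved (log2 fold change 0.06, SE 0.064, edgeR adjusted p = 0.46). Tek also differed between the clusters of a class, in CPM without TMM. An mpEC-like cluster of shallow cells, with a median depth of 0.44 of the library's, had 456 ± 87.4 (SD, n = 10). The bmEC-like clusters lay from 276 ± 39.4 to 518 ± 96.5, the latter in shallow cells too (0.43). Shares of cells with Tek at an equal depth are given below for each of these classes. The class comparison was also fitted without the shallow clusters, with its Tek value not given here. The part of depth in the class difference was not tested further.

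Tie1 was highest in metaphyseal cells and lowest in sinusoidal cells. In mpEC-like cells its lowest, median and highest values were 529, 587 and 742 CPM (600 ± 62.2, SD, n = 10), and in bmEC-like cells they were 287, 320 and 355 (320 ± 21.7). The 2 ranges did not overlap, and bmEC-like cells had the lowest value of the 4 classes in each of 10 libraries. The lowest, median and highest values were 467, 522 and 653 in aEC-like cells and 373, 494 and 636 in rEC-like cells. The highest class was mpEC-like in 7 libraries, aEC-like in 2 and rEC-like in 1. Against the mean of the other classes, Tie1 differed by a log2 fold change of -0.66 in bmEC-like cells (SE 0.054, edgeR adjusted p = 1.78e-15) and of 0.47 in mpEC-like cells (SE 0.050, edgeR adjusted p = 6.75e-11). Neither reached the size set for a call, which 5.65% of genes passed in the mpEC-like comparison. The aEC-like and rEC-like levels were not resolved from each other (log2 fold change 0.05, SE 0.070, edgeR adjusted p = 0.652).

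**Figure D1:**
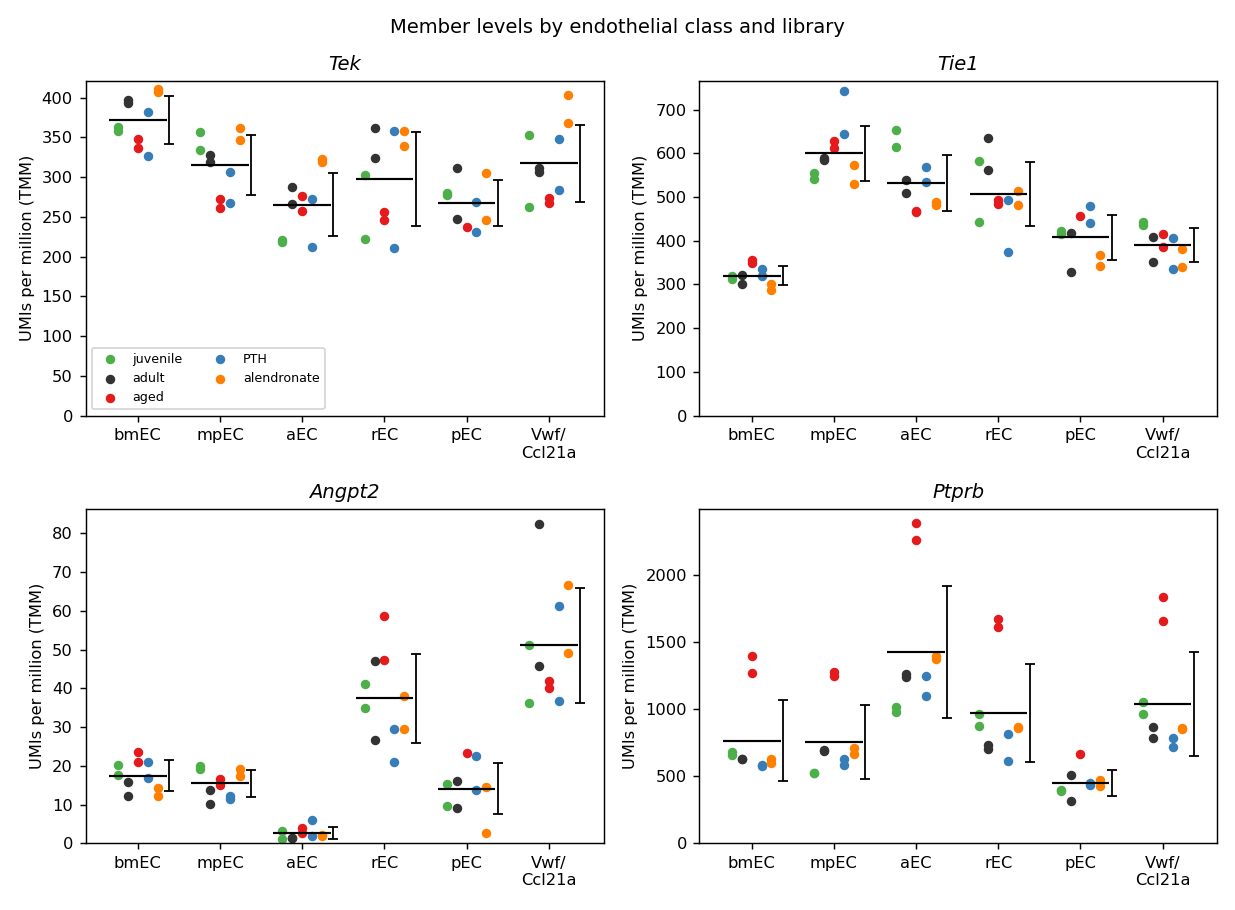
Levels of the 4 members in CPM (TMM-scaled, linear axes from 0) in each endothelial class. Points are libraries coloured by group, horizontal lines are means and bars are SDs over 10 libraries (9 for pEC-like cells). Tek was highest in bmEC-like cells and Tie1 lowest, Ptprb was highest in aEC-like cells, and Angpt2 was near 0 in aEC-like cells and high in rEC-like cells and in the cluster led by Tagln, Ccl21a and Vwf.

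Because both receptors are counted in the same cells, the ratio of their UMIs needs no scaling between libraries. The ratio of Tie1 to Tek UMIs is read here for its change between classes only, since capture can differ between genes. In bmEC-like cells it was lowest at 0.706, had a median of 0.872 and was highest at 1.03. In mpEC-like cells the lowest, median and highest ratios were 1.46, 1.81 and 2.42, in aEC-like cells 1.49, 1.92 and 2.95, and in rEC-like cells 1.35, 1.83 and 2.01. The bmEC-like range overlapped with none of these, nor with that of pEC-like cells, whose lowest ratio was 1.12. The ratio was higher than in the bmEC-like cells of the same library in 10 of 10 libraries for each class, by 1.15 ± 0.19 (log2, SD, n = 10) in mpEC-like cells, by 1.23 ± 0.33 for the arterial cells and by 0.99 ± 0.21 for rEC-like cells. For each of these 3 differences an exact two-sided sign-flip permutation test gave p = 0.00195, the smallest it can give, and 0.00391 after adjustment over 6 pairs. The test takes the 10 libraries as independent, although the 2 of each group share pooled animals. The other 3 pairs differed by less than the spread between libraries, with mean log2 differences of 0.08 ± 0.46, -0.15 ± 0.35 and -0.23 ± 0.32 and adjusted permutation p of 0.598, 0.244 and 0.0762 (exact test). The cluster led by Tagln, Ccl21a and Vwf was left out of the ratios and had Tie1 at 360 and Tek at 316 CPM, pooled over libraries. Within bmEC-like cells, 399 cells led by Cxcl10 had more Tie1 (357 ± 77.8 CPM, SD, n = 10) than Tek (276 ± 39.4).

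**Figure D2:**
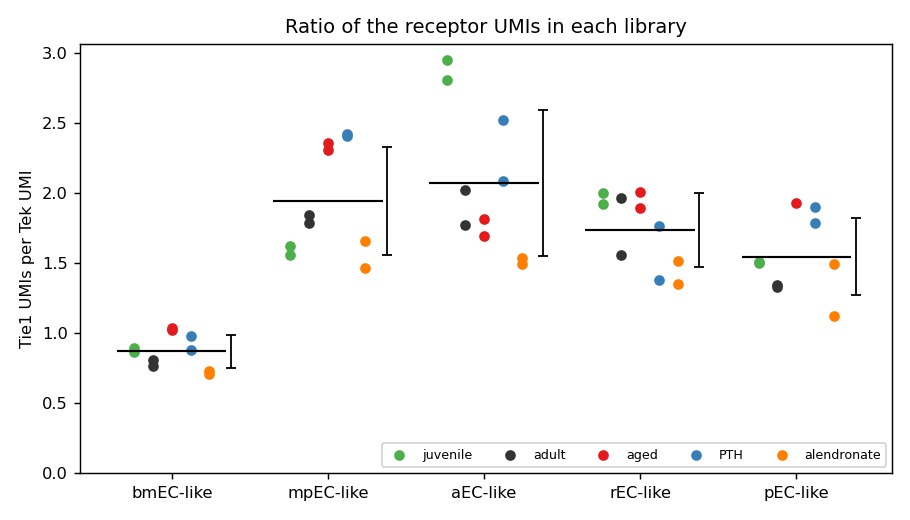
Tie1 UMIs per Tek UMI in each class (linear axis from 0). Points are libraries coloured by group, horizontal lines are means and bars are SDs. The highest bmEC-like ratio was 1.03 and the lowest ratio of any other named class was 1.12.

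Ptprb, the TIE2 phosphatase, was highest in arterial cells. Its lowest, median and highest values in aEC-like cells were 980, 1255 and 2387 CPM, against 576, 630 and 1395 in bmEC-like cells and 520, 677 and 1277 in mpEC-like cells. In rEC-like cells they were 613, 862 and 1670, and in pEC-like cells 319, 435 and 665 (n = 9). Among the 4 non-proliferating classes, aEC-like cells had the highest value within each of 10 libraries. The aged libraries were high in each of these classes, whose ranges overlapped, while the pEC-like range lay below that of aEC-like cells. The log2 fold change of aEC-like cells against the mean of the other classes was 0.98 (SE 0.051, edgeR adjusted p = 1.72e-22), just below the size set for a call, which 12.7% of genes passed. In pEC-like cells it was -0.92 (SE 0.065, edgeR adjusted p = 4.80e-17). The levels in bmEC-like and mpEC-like cells were not resolved (log2 fold change 0.02, SE 0.067, edgeR adjusted p = 0.865).

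Angpt2 was the member with the largest differences between classes and the only one with called differences from the mean of the other classes, in 2 of the 5 classes. In rEC-like cells its lowest, median and highest values were 21.1, 36.5 and 58.8 CPM (37.4 ± 11.4, SD, n = 10). In bmEC-like cells they were 12.1, 17.3 and 23.5, in mpEC-like cells 10.2, 15.8 and 20.03, and in aEC-like cells 1.14, 2.08 and 6.04. The arterial range lay below that of each of these 3 classes, and rEC-like cells had the highest value of the 4 non-proliferating classes in 10 of 10 libraries. The 5 myofibre markers summed in rEC-like cells to 33.1 to 37.2 CPM in adult and 34.6 to 41.3 in alendronate libraries. They came to 19.1 to 19.3 in aged and 22.0 to 29.3 in PTH libraries, and all 5 were at 0 in juvenile ones. In adult bmEC-like, mpEC-like and aEC-like cells they summed to 2.28 to 2.63, 2.61 to 4.61 and 7.09 to 7.65. The part of muscle-derived cells or RNA in the rEC-like values was not tested. At a clustering resolution of 1 the mpEC-like clusters differed in Angpt2, in CPM pooled over libraries without TMM. It was at 28.6 in that led by Kcne3 and Apln, within the rEC-like range, and at 2.71 in that led by Rbp7 and Ces2e. The other mpEC-like clusters had 14.6 and 6.52. The part of these clusters in the class and group values was not tested. Angpt2 was higher in rEC-like cells by a log2 fold change of 2.00 (SE 0.16, edgeR adjusted p = 9.98e-16), with 16% of genes called, and lower in aEC-like cells by -2.91 (SE 0.19, edgeR adjusted p = 6.76e-19). Of all genes, 2.49% had a fold change at least as high in rEC-like cells. The arterial level, 2.5 CPM over all libraries (95% Poisson interval 1.93 to 3.19), was like the 2.59 (1.64 to 3.89) of the cluster led by the granulocyte genes Elane, Prtn3 and Mpo, so that the fitted differences from aEC-like cells rest on counts at the level of background, and their size is uncertain beyond the SE. The same limit holds for the 2.00 and the 2.49% of rEC-like cells, since the mean of the other classes includes aEC-like cells. Between pairs of classes, Angpt2 of aEC-like cells was lower than in bmEC-like cells (log2 fold change, bmEC-like minus aEC-like, 2.74, 19.4% of genes called), and than in rEC-like cells (aEC-like minus rEC-like -3.93, 11.1% called), mpEC-like cells (mpEC-like minus aEC-like 2.58, 12% called) and pEC-like cells (aEC-like minus pEC-like -2.38, 20.2% called). Angpt2 of rEC-like cells also exceeded that of bmEC-like cells (bmEC-like minus rEC-like -1.19, 22.8% called), mpEC-like cells (mpEC-like minus rEC-like -1.35, 15.9% called) and pEC-like cells (rEC-like minus pEC-like 1.55, 22.7% called). These 7 differences passed the call, and the remaining 3 pairs, bmEC-like and mpEC-like (11% called), bmEC-like and pEC-like (15.4% called) and mpEC-like and pEC-like (7.3% called), did not. The only other pair and member to pass was Ptprb of aEC-like against pEC-like cells (1.52, SE 0.076, edgeR adjusted p = 5.20e-23). These levels rest on few molecules, with 64 Angpt2 UMIs in all aEC-like cells and 272 in all rEC-like cells. The bmEC-like and mpEC-like levels were not resolved (log2 fold change 0.16, SE 0.11, edgeR adjusted p = 0.216).

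The cluster led by Tagln, Ccl21a and Vwf also had much Angpt2, with lowest, median and highest values of 36.1, 47.4 and 82.3 CPM. With this cluster taken as a further class, a fit added after the data were seen, its Angpt2 exceeded the mean of the other classes by a log2 fold change of 1.99 (SE 0.15, edgeR adjusted p = 9.39e-18, 10.2% of genes called). That mean too includes aEC-like cells, with Angpt2 at the level of background. The Angpt2 difference of this cluster from rEC-like cells was not resolved (log2 fold change -0.37 for rEC-like minus this cluster, SE 0.18, edgeR adjusted p = 0.0968). Tek was not resolved from the mean of the other classes in this cluster (log2 fold change 0.09, SE 0.051, edgeR adjusted p = 0.188).

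The shares of cells with a UMI were set beside haematopoietic cells of the same tables, whose UMIs of endothelial genes give the level of background. After each cell was thinned to 1000 UMIs, 29.4% ± 1.77 (SD, n = 10 libraries) of bmEC-like cells had a UMI of Tek and 47.4% ± 4.36 of mpEC-like cells one of Tie1. Tek shares were 27.9% ± 3.64 in mpEC-like, 27.5% ± 4.65 in rEC-like and 24.7% ± 1.96 in aEC-like cells. In the cluster led by Tagln, Ccl21a and Vwf the Tek share was 26.4% ± 4.74. The bmEC-like share of Tek thus lay within 1 SD of the mpEC-like and rEC-like means and of this cluster's mean. Ptprb was found in 71.4% ± 8.35 of aEC-like cells. In 1397 haematopoietic cells the shares were 3.22% for Tek (95% exact interval 2.36 to 4.29), 3.44% for Tie1 and 6.16% for Ptprb. For all 3 genes these shares lay above the background. Angpt2 was found in 2.89% ± 1.56 of rEC-like, 1.63% ± 0.60 of bmEC-like, 1.34% ± 0.33 of mpEC-like and 0.157% ± 0.24 of aEC-like cells, against 0.286% (0.0781 to 0.731) of haematopoietic cells, so that the arterial share was not above background. In the cluster led by Tagln, Ccl21a and Vwf it was 4.27% ± 1.37. Before thinning, median depths were 3763, 3403, 3362.5 and 2031 UMIs in bmEC-like, mpEC-like, aEC-like and rEC-like cells and 5402 in haematopoietic cells, and 541, 714, 219, 324 and 24 cells were too shallow to be thinned. Without thinning the share of bmEC-like cells with Tek was 69.4%, of mpEC-like cells with Tie1 82.9%, of rEC-like cells with Angpt2 7.65% and of aEC-like cells with Ptprb 94.6%. The unthinned shares of haematopoietic cells were 15.8% for Tek, 19.8% for Tie1, 2.11% for Angpt2 and 23.4% for Ptprb.

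Angpt1, which cells other than endothelium are known to supply, was nearly absent from endothelium. Angpt1, the main TIE2 agonist, had 522 UMIs in all cells, of which 60 (11.5%) lay in endothelial cells, whereas 2733 of 2890 Angpt2 UMIs (94.6%) did. Endothelial cells were 43818 of the 46283 cells. The Angpt2 share thus lay close to their share of cells, and that of Angpt1 far below it. In the cluster led by Elane, Prtn3 and Mpo, genes of granulocyte precursors, Angpt1 was at 41.4 CPM (95% Poisson interval 37.2 to 45.8). This cluster held 367 of the Angpt1 UMIs. It was left unnamed, since its megakaryocyte score (3.55) led its haematopoietic one (3.35) by too little. Which of its cells held the Angpt1 UMIs was not tested. Since endothelial cells were sorted, the other cells here are only those that passed the sort. The split of Angpt1 UMIs among these other cells therefore does not measure its sources in bone. In 200 cells led by Ibsp, Adipoq and Gpx3, which carried mural or mesenchymal markers, Angpt1 was at 38.3 (26.8 to 53.0). In rEC-like cells no Angpt1 UMI was found, with an upper bound of 0.529 CPM. The same 200 cells had 59.5 CPM of Angpt2 (45.0 to 77.3), and 53 cells led by Acta2, Rgs5 and Myl9 had 55.5 (31.7 to 90.1). Tek in the cluster led by Ibsp, Adipoq and Gpx3 was at 247 ± 52.4 CPM (SD, n = 6 libraries), and the part of endothelial RNA in its Angpt2 was not tested. The intervals cover counting error only. Angpt4 had 17 UMIs in all, of which 10 lay in endothelial cells. Svep1, which encodes an extracellular protein that binds TIE1, had 218, of which 71 lay in endothelial cells.

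**Figure D3:**
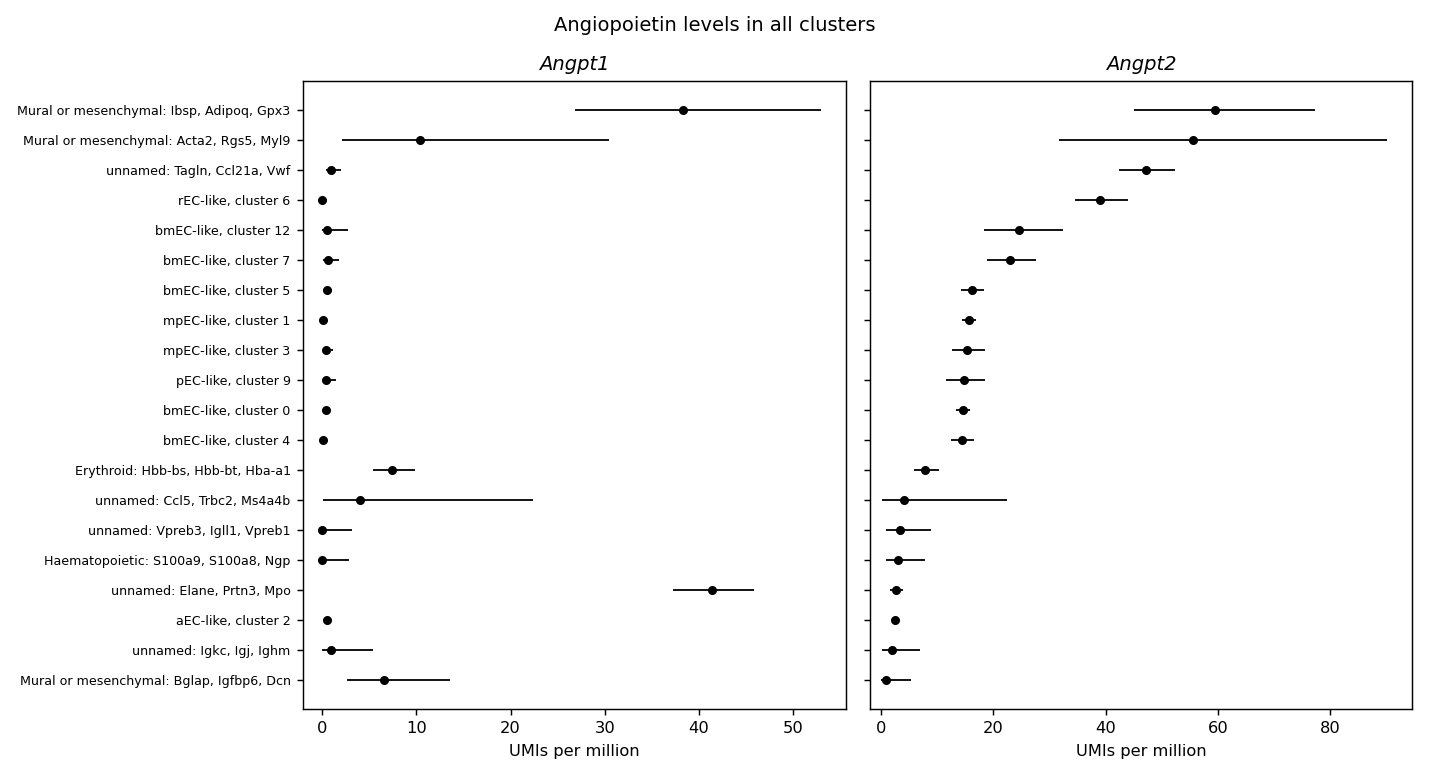
Angpt1 and Angpt2 in CPM (linear axes) in each cluster, summed over all 10 libraries. Points are pooled levels and bars are 95% Poisson intervals that cover counting error only. Angpt1 was highest in the cluster led by Elane, Prtn3 and Mpo (41.4) and in that led by Ibsp, Adipoq and Gpx3 (38.3), and Angpt2 was highest in 2 mural or mesenchymal clusters, the cluster led by Tagln, Ccl21a and Vwf and rEC-like cells.

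Of the 24 further genes listed for the pathway, 19 were abundant enough to be tested between classes. In bmEC-like cells 2 were called higher and 2 lower than in the other classes (15.4% of all genes called), with a median log2 fold change of 0.06 over the 19 against -0.01 over all genes. Nos3, endothelial nitric oxide synthase, was lower there (log2 fold change -1.62, SE 0.066, edgeR adjusted p = 7.04e-27) and higher in aEC-like cells (1.23, SE 0.058, edgeR adjusted p = 3.89e-24). Klf2, a flow-responsive transcription factor, was also lower in bmEC-like cells (-1.95, SE 0.14) and higher in aEC-like (1.63, SE 0.11) and rEC-like cells (1.26, SE 0.12). Mmp14, a membrane metalloproteinase, was higher in bmEC-like (1.01, SE 0.091) and mpEC-like cells (1.45, SE 0.089) and lower in rEC-like cells (-3.17, SE 0.19). Foxo1, the transcription factor that TIE2 signalling holds in check, was not called in any of the 5 named classes and differed there by at most 0.54 in size from the other classes. In the cluster led by Tagln, Ccl21a and Vwf, Foxo1 was higher than in the other classes (log2 fold change 0.85, SE 0.066, edgeR adjusted p = 7.94e-17), below the size set for a call, which it passed against pEC-like cells alone (pEC-like minus this cluster -1.28, 18.3% of genes called). Counts called were 2 of 19 in mpEC-like (both higher), 3 in aEC-like (2 higher), 4 in rEC-like (1 higher) and 1 in pEC-like cells (higher), where 5.65%, 12.7%, 16% and 11.2% of all genes were called, so that none of these counts stood far from the share over all genes. The adaptor gene Grb14 made up part of these counts and had a mean of at most 8.09 CPM in any class.

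The genes whose levels were most like those of each member over 49 class and library sums, by Pearson correlation of log2(CPM + 10) among 6723 genes, are a description only, since the sums share libraries and cells. They were Thbd, the thrombomodulin gene, for Tek (r = 0.753), Rapgef4 for Tie1 (0.857), Ssh2 for Angpt2 (0.865) and Prex2 for Ptprb (0.938). The next 2 were Apoe and Prelid2 for Tek, Pcdh1 and Cxx1c for Tie1, Tshz2 and Lpl (lipoprotein lipase) for Angpt2, and Ece1 and Epas1 for Ptprb. Between the members r lay from -0.34 (Tek and Tie1) to 0.30 (Tie1 and Ptprb).

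Groups were compared at fixed class, with the adult libraries as the common control of all 4 comparisons. Juvenile mice were of both sexes and adult mice female, so age and sex cannot be told apart there. The methods of the study name PBS as the injection given in place of an agent, but neither they nor the labels say whether the adult libraries came from mice so injected. If they did not, the effect of an agent and that of its injection cannot be told apart in the treated groups. Levels in the following paragraphs are scaled within a class. Tests of a difference between classes in a group effect used counts scaled over all class sums instead. In juvenile mice, Angpt2 of mpEC-like cells was at 21.1 and 20.5 CPM against 14.2 and 10.5 in adult mice. Both juvenile values lay above both adult ones, and the log2 fold change was 0.74 (SE 0.17, edgeR adjusted p = 0.000678, 28.7% of genes called). In bmEC-like cells the values were 17.2 and 19.7 against 11.6 and 15.1 (0.47, SE 0.13, edgeR adjusted p = 0.0043, 38.1% called), and this call was lost without adult replicate 1 (0.29, adjusted p = 0.165) or juvenile replicate 2 (0.37, adjusted p = 0.0815). In these cells the megakaryocyte markers summed to 198 to 217 CPM in juvenile against 80.1 to 91.9 in adult libraries, the erythroid ones to 623 to 936 against 310 to 453, the haematopoietic ones to 7.23 to 11.04 against 41.6 to 47.2 and the aEC-like ones to 49.7 to 53.0 against 88.9 to 95.5, and their part was not tested. Over all endothelial cells Angpt2 was at 17.6 and 19.4 against 13.3 in both adult libraries (0.48, SE 0.095, edgeR adjusted p = 0.000298, 43.1% called). In aEC-like and rEC-like cells the Angpt2 difference did not pass the test, with SEs of 1.01 and 0.59.

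Juvenile Ptprb was lower in mpEC-like cells, at 549 and 555 against 720 and 711 CPM (log2 fold change -0.38, SE 0.050, edgeR adjusted p = 9.27e-08), and in aEC-like cells, at 1035 and 995 against 1253 and 1233 (-0.29, SE 0.059, edgeR adjusted p = 0.000462, 14.9% of genes called). In bmEC-like cells it was slightly higher, at 640 and 661 against 598 and 595 (0.12, SE 0.039, edgeR adjusted p = 0.0101), a call lost without juvenile replicate 2 (adjusted p = 0.118). The juvenile effect on Ptprb differed from that in bmEC-like cells by -0.50 in mpEC-like cells (SE 0.078, edgeR adjusted p = 1.62e-06) and by -0.42 in aEC-like cells (SE 0.084, edgeR adjusted p = 0.000362), with 7.24% and 5.31% of genes called in these tests of the difference. Over all endothelial cells Ptprb was at 633 and 648 against 723 and 712 (-0.16, SE 0.039, edgeR adjusted p = 0.00162), with aEC-like shares of 5.48% and 5.69% against 11.8% and 11.9%. Markers of other classes differed beside these values: in juvenile mpEC-like cells the 6 aEC-like markers summed to 152 to 159 CPM against 278 to 299 in adult mice and the 8 bmEC-like markers to 1782 to 1832 against 1350 to 1439. The rEC-like ones summed to 8.69 to 9.55 against 20.6 to 20.9, the haematopoietic ones to 7.68 to 11.5 against 37.3 to 49.7 and the megakaryocyte ones to 113 to 125 against 60.9 to 66.2. The part of these markers in Ptprb and Angpt2 of mpEC-like cells was not tested. In rEC-like cells, of which juvenile libraries held 49 and 34, Ptprb was at 1049 and 964 against 728 and 701 (0.50, SE 0.15, edgeR adjusted p = 0.0271, 3.4% called), and leaving out 1 library ended the call in 7 of 10 cases, with values of 0.35 (without juvenile replicate 1), 0.50 (juvenile 2), 0.46 (adult 1), 0.42 (adult 2) and 0.48 (aged 1, alendronate 1 and alendronate 2). In these cells the bmEC-like markers summed to 759 to 822 CPM in juvenile against 428 to 468 in adult libraries and the mpEC-like ones to 621 to 707 against 1058 to 1309, and their part was not tested.

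The receptors moved in opposite directions in juvenile arterial cells. Tie1 of aEC-like cells was at 626 and 663 against 535 and 506 CPM (log2 fold change 0.31, SE 0.065, edgeR adjusted p = 0.000715). Tek was at 223 and 225 against 265 and 286 (-0.30, SE 0.099, edgeR adjusted p = 0.0369), and its call was lost without adult replicate 2 (adjusted p = 0.183), juvenile replicate 1 (0.163) or juvenile replicate 2 (0.147). The ratio of Tie1 to Tek UMIs in aEC-like cells was 2.81 and 2.95 in juvenile mice against 1.77 and 2.02 in adult mice. In mpEC-like cells it went the other way, at 1.62 and 1.55 against 1.78 and 1.84. In bmEC-like cells it was 0.863 and 0.894 against 0.809 and 0.763, and in rEC-like cells the groups overlapped. With 2 libraries against 2, no exact test of the ratio can reach 0.05. In the other classes neither receptor passed the test in juvenile mice. Within juvenile aEC-like cells the 5 mpEC-like markers summed to 429 to 485 CPM against 224 to 253 in adult mice and the 8 bmEC-like markers to 701 to 761 against 534 to 621, none of them at 0. The 8 haematopoietic markers, 2 of them at 0 in juvenile libraries, summed to 4.30 to 5.67 against 38.5 to 42.6. The part of these markers in the receptor and Ptprb values was not tested. With cells chosen by a marker gate in place of clusters, the juvenile calls of Tie1 and Ptprb in aEC-like cells (0.28, adjusted p = 0.147, and -0.12, adjusted p = 0.465) and of Angpt2 in mpEC-like cells (0.42, adjusted p = 0.498) were lost.

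In aged mice a large share of genes passed the test, 66.4% in bmEC-like, 66.6% in mpEC-like, 58% in aEC-like, 47.5% in rEC-like and 73.7% over all endothelial cells, so that a call there says little about a member. Ptprb was higher in all 4 classes, and its 2 aged values lay above all other libraries in each of them. It was at 1128 and 1231 against 598 and 595 CPM in bmEC-like cells (log2 fold change 0.98, SE 0.040, edgeR adjusted p = 6.55e-24) and at 1253 and 1232 against 720 and 711 in mpEC-like cells (0.80, SE 0.049, edgeR adjusted p = 7.76e-18). In aEC-like cells it was at 2229 and 2362 against 1253 and 1233 (0.88, SE 0.053, edgeR adjusted p = 2.51e-16), and in rEC-like cells at 1722 and 1666 against 728 and 701 (1.24, SE 0.098, edgeR adjusted p = 8.15e-24). Over all endothelial cells it was at 1372 and 1433 against 723 and 712 (0.97, SE 0.039, edgeR adjusted p = 8.96e-16). Between 11.4% and 19.4% of all genes had a fold change at least as high in these 4 classes. The effect in mpEC-like cells was smaller than in bmEC-like cells by 0.22 (a difference of -0.22, SE 0.077, edgeR adjusted p = 0.0457, 13.2% of genes called).

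Aged Tek was lower than adult Tek in 3 classes: 299 and 307 against 376 and 372 CPM in bmEC-like cells (log2 fold change -0.30, SE 0.049, edgeR adjusted p = 9.75e-07), 267 and 258 against 338 and 329 in mpEC-like cells (-0.35, SE 0.061, edgeR adjusted p = 3.76e-06) and 264 and 255 against 357 and 323 in rEC-like cells (-0.39, SE 0.13, edgeR adjusted p = 0.0064). Over all endothelial cells Tek was at 262 and 255 against 352 and 348 (-0.44, SE 0.051, edgeR adjusted p = 7.75e-08), where bmEC-like cells were 23.8% and 23.5% of aged against 53.0% and 53.9% of adult cells. These values depend on the scaling. With total counts in place of TMM the median of all genes in the aged comparison of bmEC-like cells moved from 0.02 to 0.43, and Tek came to 0.10 in bmEC-like cells (adjusted p = 0.0664) and to -0.12 in mpEC-like cells (adjusted p = 0.0718). The call in rEC-like cells was also lost without adult replicate 1 (-0.31, adjusted p = 0.167). The split of called genes in bmEC-like cells went from 50.5% higher to 71% higher with total counts. The UMI ratio of Tie1 to Tek, which no scaling touches, was 1.02 and 1.03 in aged against 0.763 and 0.809 in adult bmEC-like cells, and 2.31 and 2.35 against 1.78 and 1.84 in mpEC-like cells. In aEC-like cells it was 1.69 and 1.82 against 1.77 and 2.02, and in rEC-like cells 1.89 and 2.01 against 1.56 and 1.96, and in both classes the groups overlapped.

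Aged Tie1 passed the test in aEC-like cells only, at 460 and 462 against 535 and 506 CPM (log2 fold change -0.18, SE 0.059, edgeR adjusted p = 0.011), and not without adult replicate 1 (adjusted p = 0.117), aged replicate 1 (0.0782) or aged replicate 2 (0.0689), nor with total counts (-0.08, adjusted p = 0.269). Relative to bmEC-like cells the aged effect on Tie1 was lower by 0.34 in aEC-like (difference -0.34, SE 0.081, edgeR adjusted p = 0.000832, 19.1% of genes called) and by 0.47 in rEC-like cells (difference -0.47, SE 0.10, edgeR adjusted p = 0.000797, 9.04% called). Aged Angpt2 was at 18.7 and 20.7 against 11.6 and 15.1 in bmEC-like cells (0.56, SE 0.15, edgeR adjusted p = 0.00145), a call lost without adult replicate 1 (0.37, adjusted p = 0.0593), and at 18.2 and 17.1 against 13.3 over all endothelial cells (0.41, SE 0.097, edgeR adjusted p = 0.000697), of which rEC-like cells were 14.1% and 14.0% in aged against 4.89% and 4.5% in adult libraries, and the cluster led by Tagln, Ccl21a and Vwf 5.21% and 6.14% against 1.96% and 2.14%. Markers of haematopoietic cells moved with age as well: the summed level of all 8 listed markers in bmEC-like cells was 94.0 to 117 CPM in aged against 41.6 to 47.2 in adult libraries, and none of the 8 was at 0. Markers of other vessels also differed in aged bmEC-like cells. The 5 rEC-like markers summed to 114 to 125 CPM in aged against 15.3 to 20.2 in adult libraries, the 6 aEC-like markers to 205 to 235 against 88.9 to 95.5, and the 5 lymphatic-like markers, 1 of them at 0 in both groups, to 321 to 363 against 148 to 154. In aged mpEC-like cells the aEC-like markers summed to 427 to 503 against 278 to 299, the rEC-like ones to 59.8 to 64.2 against 20.6 to 20.9 and the haematopoietic ones to 98.6 to 129 against 37.3 to 49.7. Lower there were the bmEC-like markers, at 951 to 1004 against 1350 to 1439, the mpEC-like ones, at 1221 to 1230 against 1656 to 1704, and the megakaryocyte ones, at 23.7 to 26.0 against 60.9 to 66.2. In aged rEC-like cells the mpEC-like markers summed to 317 to 343 against 1058 to 1309, the aEC-like ones to 398 to 436 against 241 to 291 and the haematopoietic ones, 1 of them at 0 in both groups, to 114 to 185 against 49.6 to 53.7. In aged aEC-like cells the bmEC-like markers summed to 239 to 248 against 534 to 621, the mpEC-like ones to 83.2 to 91.3 against 224 to 253 and the haematopoietic ones to 92.8 to 122 against 38.5 to 42.6. The part of these cells in the aged values was not tested. The share of bmEC-like cells in a cluster of shallow cells led by Gm10800, where Ptprb was at 1043 ± 421 and Tek at 518 ± 96.5 CPM (SD, n = 10), was 29.6% and 33.5% in aged against 13.7% and 14.7% in adult libraries. Of aged bmEC-like cells 2.79% lay in the cluster led by Slc39a1 and 5.4% in that led by Fos, against 20.8% and 15.8% of adult ones, and these clusters had Ptprb at 538 ± 43.0 (SD, n = 8) and 685 ± 344 CPM (n = 10). Aged and adult cells of the class were thus spread differently over its clusters. Of aged mpEC-like cells 44.0% and 38.7% lay in the shallow cluster of that class, against 32.1% and 30.1% of adult ones. There Ptprb was at 1190 ± 451 and Tek at 456 ± 87.4 CPM, against 708 ± 302 and 299 ± 24.3 in its other cluster (SD, n = 10). A fit without the shallow clusters was also made for mpEC-like cells, with its aged values not given here. The part of this shift in the aged mpEC-like values was not tested further. Without the shallow clusters, an alternative added after the data were seen, Ptprb was higher in aged bmEC-like cells, with a log2 fold change of 1.00 (edgeR adjusted p = 3.46e-24), and Tek lower, with one of -0.25 (edgeR adjusted p = 1.76e-05). The clusters led by Slc39a1 and by Fos stayed in this fit, and the part of their shares was not tested.

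**Figure D4:**
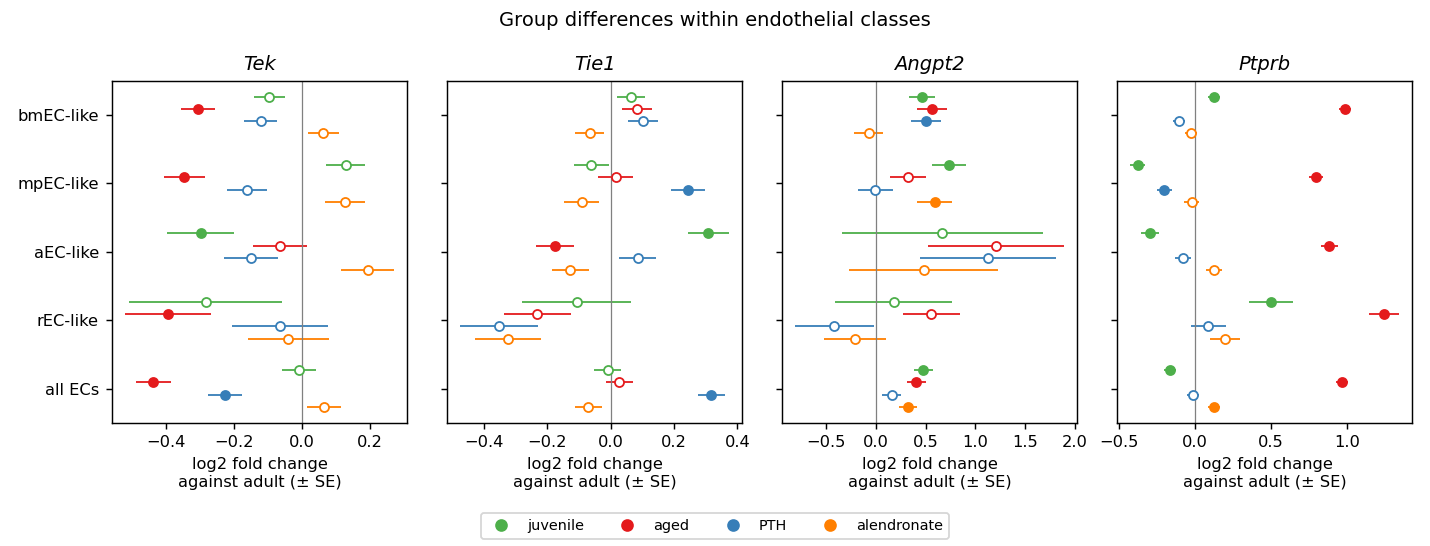
Log2 fold change (x axis, with SE) of each group against adult libraries for the 4 members in 4 classes and over all endothelial cells, coloured by group; filled points have an adjusted p under 0.05 and open points do not. Ptprb in aged libraries was higher in every row, with its lowest value, 0.796, in mpEC-like cells.

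After PTH, 3 differences passed within classes, and each was lost under at least 1 alternative. Tie1 of mpEC-like cells was at 660 and 764 against 604 and 606 CPM (log2 fold change 0.24, SE 0.054, edgeR adjusted p = 0.000804, 17.1% of genes called), and the call was lost without PTH replicate 2 (0.13, adjusted p = 0.195). The shallow cluster of this class, with Tie1 at 846 ± 98.5 CPM against 576 ± 78.3 in its other cluster (SD, n = 10), held 26.2% and 39.9% of the PTH cells, the higher share in replicate 2, against 32.1% and 30.1% of the adult ones. Without the shallow clusters, an alternative added after the data were seen, Tie1 was higher by 0.22 (edgeR adjusted p = 0.000711). Ptprb of the same cells was at 598 and 643 against 720 and 711 (-0.20, SE 0.050, edgeR adjusted p = 0.00272), lost without PTH replicate 1 (-0.15, adjusted p = 0.0538). With a marker gate in place of clusters neither passed (0.06 for Tie1, adjusted p = 0.836, and -0.01 for Ptprb, adjusted p = 0.986). Angpt2 of bmEC-like cells was at 16.2 and 20.1 against 11.6 and 15.1 (0.51, SE 0.15, edgeR adjusted p = 0.0238, 9.77% called), lost without PTH replicate 2 (0.27, adjusted p = 0.678) or adult replicate 1 (0.32, adjusted p = 0.31) and with DESeq2 (adjusted p = 0.333). In these cells the mpEC-like markers summed to 386 to 397 CPM after PTH against 243 to 258, the aEC-like ones to 158 to 176 against 88.9 to 95.5 and the haematopoietic ones to 22.0 to 24.5 against 41.6 to 47.2, and their part was not tested. Over all endothelial cells Tie1 was at 495 and 553 against 431 and 414 (0.32, SE 0.043, edgeR adjusted p = 4.85e-06, 29.5% called) and Tek at 272 and 321 against 352 and 348 (-0.23, SE 0.050, edgeR adjusted p = 0.00135). The value for Tek came to -0.12 without PTH replicate 1 and to -0.37 without PTH replicate 2. Tek did not pass the test within any class, and no member did in rEC-like cells (3.11% of genes called). Without PTH replicate 2, Tek passed as lower in bmEC-like (-0.27, edgeR adjusted p = 0.00177), mpEC-like (-0.28, adjusted p = 0.00424) and aEC-like cells (-0.36, adjusted p = 0.0125). It also passed in bmEC-like cells without the filter on low counts (-0.14, edgeR adjusted p = 0.0368), and in mpEC-like cells without either aged library (-0.16, adjusted p = 0.0485 for both), without the shallow clusters (-0.18, adjusted p = 0.023) and at a clustering resolution of 0.3 (-0.23, adjusted p = 0.00336). The mix of classes differed beside this: bmEC-like cells, with the most Tek and the least Tie1, made up 34.8% and 29.6% of endothelial cells in PTH against 53.0% and 53.9% in adult libraries. Within mpEC-like cells the ratio of Tie1 to Tek UMIs was 2.41 and 2.42 against 1.78 and 1.84. The class itself differed in its markers, the 8 bmEC-like ones summing to 642 to 650 CPM after PTH against 1350 to 1439 and the 5 mpEC-like ones to 2797 to 2817 against 1656 to 1704. The aEC-like ones summed to 365 to 414 against 278 to 299, the erythroid ones to 70.8 to 113 against 238 to 254 and the haematopoietic ones to 20.1 to 24.3 against 37.3 to 49.7. The part of these markers in Tie1, Ptprb and the ratio was not tested. The ratio was 0.981 and 0.881 against 0.809 and 0.763 in bmEC-like cells and 2.52 and 2.09 against 2.02 and 1.77 in aEC-like cells, and overlapped in rEC-like cells. The PTH effect on Tie1 in rEC-like cells differed from that in bmEC-like cells by -0.46 (SE 0.12, edgeR adjusted p = 0.0249, 1.06% of genes called), with 1 PTH library holding only 32 rEC-like cells.

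After alendronate, Angpt2 of mpEC-like cells was at 17.9 and 19.8 against 14.2 and 10.5 CPM (log2 fold change 0.59, SE 0.18, edgeR adjusted p = 0.018, 13% of genes called), and the call was lost without adult replicate 2 (0.40, adjusted p = 0.285), alendronate replicate 1 (0.66, adjusted p = 0.0524) or alendronate replicate 2 (0.51, adjusted p = 0.159). No other member passed the test within a class. The ratio of Tie1 to Tek UMIs after alendronate lay below both adult libraries in all 4 non-proliferating classes. It was 0.706 and 0.731 against 0.809 and 0.763 in bmEC-like, 1.46 and 1.66 against 1.78 and 1.84 in mpEC-like, 1.53 and 1.49 against 2.02 and 1.77 in aEC-like, and 1.51 and 1.35 against 1.56 and 1.96 in rEC-like cells. In mpEC-like cells the aEC-like markers summed to 380.1 to 380.3 CPM after alendronate against 278 to 299, the mpEC-like ones to 1361 to 1391 against 1656 to 1704, the rEC-like ones to 32.5 to 39.8 against 20.6 to 20.9 and the haematopoietic ones to 66.3 to 95.4 against 37.3 to 49.7, and their part in Angpt2 was not tested. The mpEC-like markers were also lower in bmEC-like cells (172 to 176 against 243 to 258) and aEC-like cells (154 to 177 against 224 to 253). In rEC-like cells these markers summed to 769 to 772 against 1058 to 1309. The part of such markers in the ratio was not tested in any of the 4 classes. In pEC-like cells no member passed in any of the 3 comparisons that could be made, where 4.14% of genes passed in juvenile mice, 2.44% after PTH and 1.39% after alendronate. Over all endothelial cells Angpt2 was at 17.5 and 15.8 against 13.3 (0.32, SE 0.094, edgeR adjusted p = 0.0132, 27.7% called) and Ptprb at 771 and 792 against 723 and 712 (0.12, SE 0.039, edgeR adjusted p = 0.0204). Both calls were lost without either adult library (adjusted p of 0.0614 and 0.0629 for Angpt2, and of 0.0575 and 0.117 for Ptprb), the former also without alendronate replicate 1 (0.14) and the latter without alendronate replicate 2 (0.13). The rEC-like share of endothelial cells, the named class with the most Angpt2, was 11.7% and 11.8% in alendronate against 4.89% and 4.5% in adult libraries, and that of the cluster led by Tagln, Ccl21a and Vwf, with a higher mean of Angpt2, 6.56% and 7.17% against 1.96% and 2.14%. Among all calls within classes, DESeq2 also lost Angpt2 and Ptprb of juvenile bmEC-like cells (adjusted p = 0.0838 and 0.0567), Tek of juvenile aEC-like cells (0.172), Tie1 of aged aEC-like cells (0.133), Tek of aged rEC-like cells (0.144) and Angpt2 of alendronate mpEC-like cells (0.196). The marker gate also lost Tek of juvenile aEC-like cells (adjusted p = 0.409), Tek of aged mpEC-like (0.0673) and rEC-like cells (0.361), Tie1 of aged aEC-like cells (0.336), Angpt2 of PTH bmEC-like cells (0.252) and Angpt2 of alendronate mpEC-like cells (0.181).

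Among the 24 pathway genes, 19 were tested in bmEC-like cells. In juvenile mice 9 were higher and 3 lower than in adult mice, in aged mice 10 and 3, after PTH 5 and 0, and after alendronate 4 and 0. Of all genes in these cells 38.1%, 66.4%, 9.77% and 18.8% passed, so that the aged and alendronate counts in bmEC-like cells were near the share over all genes. In mpEC-like cells 5 of 19 were higher and 2 lower in juvenile mice, 11 and 6 in aged mice, 7 and 1 after PTH and 4 and 0 after alendronate, where 28.7%, 66.6%, 17.1% and 13% of all genes passed. Klf2 of bmEC-like cells was lower in juvenile (log2 fold change -1.01, SE 0.049, edgeR adjusted p = 2.57e-20) and aged mice (-1.51, SE 0.056, edgeR adjusted p = 3.31e-25) and higher after PTH (0.24, SE 0.048, edgeR adjusted p = 0.000344). The median log2 fold change of the 19 genes was 0.17, 0.24, 0.07 and 0.08 in the 4 comparisons, against medians between -0.01 and 0.02 over all genes. The list was chosen with earlier results of these data known, so its counts and medians are a description only. In aEC-like cells 7 of 18 tested genes passed in juvenile, 10 in aged, 4 in PTH and 2 in alendronate mice, where 14.9%, 58%, 7.4% and 7.32% of all genes passed. Cdh5, which encodes the cadherin that VE-PTP binds, was higher in juvenile (0.50, SE 0.054, edgeR adjusted p = 5.98e-09) and PTH aEC-like cells (0.21, SE 0.051, edgeR adjusted p = 0.00511). Of the 18 genes tested in rEC-like cells 10 were higher in aged mice, where 47.5% of all genes passed, and none passed in juvenile mice (3.4% of all genes) or after PTH (3.11%). After alendronate 1 passed in these cells, Klf2, at 5157 and 4793 against 1855 and 1864 CPM, with a log2 fold change of 1.42 (SE 0.093, edgeR adjusted p = 4.02e-29, 3.14% of all genes called). In the same cells the aEC-like markers summed to 455 to 566 CPM against 241 to 291 and the mpEC-like ones to 769 to 772 against 1058 to 1309, and their part was not tested.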

How the data were processed

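Single-cell RNA-seq counts of sorted bone endothelial cells were analysed in 10 libraries, 2 for each of 5 groups taken from the sample labels. The authors extracted barcodes and UMIs with UMI-tools 1.1.2, aligned reads to mm10 with STAR 2.7.10a and assigned them with featureCounts 2.0.3, according to the submitters' processing notes; the deposited values are UMI counts per gene and cell, unnormalized. The annotation release and the strand setting are not given in the sources used here.

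Cells with 500 to 6000 genes and under 25% mitochondrial UMIs were kept (46283 of 47466), and genes in at least 3 cells. The libraries were integrated in Seurat 5.3.0 (R 4.3.3; reciprocal PCA, 2000 features, 30 components, resolution 0.5) without the 4 members and 24 pathway genes as features. Clusters were named by markers (at least 3 up by a log2 of 0.5 and a score that led by 0.3). No doublet call was used in the main analysis; without the 1954 cells with the highest scrublet scores (scanpy 1.11.5) the tests were repeated. UMI counts were summed per class and library (at least 20 cells) and tested by edgeR 4.0.16 quasi-likelihood (filterByExpr, TMM, Benjamini-Hochberg adjusted p over all tested genes). Classes were compared with the library as a block and called where the adjusted p lay below 0.05 and the size of the log2 fold change exceeded 1; groups were compared with adult libraries within a class, without a block, and called at an adjusted p under 0.05. Aged pEC-like cells were not tested, since 1 library had 17 cells. Shares of cells used thinning to 1000 UMIs and 95% exact (Clopper-Pearson) intervals, which cover counting error only. Tests were checked on simulated counts with 200 changed genes: 100 of 100 4-fold and 94 of 100 2-fold changes were recovered for rEC-like cells against the other classes (11294 genes), 97 and 70 for aged against adult bmEC-like cells (12987 genes), and 98 and 50 for aged against adult rEC-like cells (7981 genes). A change counted as recovered at an adjusted p under 0.05 with the right sign, without the size set for a class call. Changed genes were drawn only from those above a set expected count, at a fixed dispersion. Recovery of genes with fewer counts, or by the class call itself, was not checked.

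Replicate numbers did not pair the libraries: deviations from the group means correlated by -0.02 to 0.05 over 10 pairs. Replicates of a group differed by more than sampling noise (chi-square per degree of freedom 1.54 to 2.82). The named genes were the members, the pathway genes past a threshold, the 3 genes most like each member and the class markers. The members and gene lists were chosen with earlier results of these data known. DESeq2 1.42.0 and the settings in the closing section were alternatives.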

Additional observations from a re-analysis of the deposited data

Results flagged for a closer look

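A difference between classes in the effect of a group, tested as an interaction against bmEC-like cells by edgeR, passed for 6 results. These fits scaled counts over all class sums, not within a class, and were not repeated under the alternatives. Scaling shifts the aged comparisons unequally. With total counts the median of all genes within a class was 0.43 in bmEC-like, 0.22 in mpEC-like and 0.07 in both aEC-like and rEC-like cells. For Ptprb the juvenile effect differed by a log2 value of -0.50 in mpEC-like (adjusted p = 1.62e-06) and of -0.42 in aEC-like cells (adjusted p = 0.000362), and the aged effect differed by -0.22 in mpEC-like cells (adjusted p = 0.0457). For Tie1 the aged effect differed by -0.34 in aEC-like (adjusted p = 0.000832) and by -0.47 in rEC-like cells (adjusted p = 0.000797, with 9.04% of genes called), and the PTH effect by -0.46 in rEC-like cells (adjusted p = 0.0249). Age and the making of the aged libraries cannot be told apart, and the causes were not tested.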

How the results depend on the processing

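With total counts in place of TMM, Tek in aged mice came to 0.10 in bmEC-like cells, against -0.30, and to -0.088 over all endothelial cells (adjusted p = 0.122). Ptprb in aEC-like cells against the other classes passed the size for a call without the library block (1.01), without the highest doublet scores (1.01) and without the shallow clusters (1.02). Angpt2 over all endothelial cells after alendronate was lost with DESeq2 (0.34, adjusted p = 0.104) and ranged from 0.25 to 0.40 with 1 library left out, and Ptprb there from 0.11 to 0.15. Without the filter on low counts 3260 genes were called in bmEC-like cells (1820 with it) and 1098 in mpEC-like cells (665). Genes called over all endothelial cells after PTH (4522) ranged from 3002, without PTH replicate 2, to 4542, and were 2660 with DESeq2, which called 2316 after alendronate (4234). Shares of cells with Tek, Tie1, Angpt2 and Ptprb, in the classes named for each above, were 48.0%, 67.2%, 6.08% and 87.5% at 2000 UMIs and 69.4%, 82.9%, 7.65% and 94.6% unthinned. Replicate numbers did not pair the libraries, and with a replicate block Angpt2 in juvenile mice over all endothelial cells was 0.48, Ptprb -0.16 and no call of a member was lost. For the calls between groups within single classes, 51 alternative values no longer passed, 409 kept direction and call and 1, Tek in aged bmEC-like cells above, reversed. The causes were not tested. Angpt2 levels rest on few molecules, with 1 to 12 UMIs per library in aEC-like cells.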
